A study of Mus musculus with 4 samples.

Results

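The matrix metalloproteinases (MMPs) measured here were Mmp2, Mmp3, Mmp8, Mmp9, Mmp10, Mmp11, Mmp12, Mmp13 and Mmp14, set beside Timp1, which encodes a secreted inhibitor of MMPs. They were taken as named genes, with every probe set that the platform table assigns to 1 of these symbols alone. Earlier results of these data were known when they were chosen. All 10 genes were found among the 12393 genes of the array, with 13 probe sets: 2 each for Mmp2, Mmp9 and Mmp14, and 1 each for the other 7 genes. MMPs are zinc-dependent proteases that cut collagens, laminins and other matrix proteins, and most are secreted as inactive precursors that other proteases activate. TIMPs bind the active enzymes and block them. In the mammary gland MMPs take part in ductal branching and in the regression of the gland after lactation, and in tumours they are made by cancer cells, fibroblasts and infiltrating leukocytes.

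The samples were mammary tumours of nulliparous female mice on the FVB background, although the extraction note speaks of mammary gland tissue. All animals had received 15 mg of the progestin MP (Depo-Provera) under the skin and then 4 weekly doses of 1 mg of the carcinogen DMBA by gavage, so no group was free of progestin or carcinogen. The mice were wild type (WT) or had the MMTV-PAX8PPARg allele, a transgene that joins the transcription factor PAX8 to PPARg, a nuclear receptor, and is driven by the promoter of the mouse mammary tumour virus, active mainly in epithelial cells. Animals were age-matched littermates, and their age is not stated. Each genotype received pellets of placebo or of 2.5 mg RU486 (mifepristone), which blocks the receptors for progesterone and glucocorticoids, with a release over 60 days, placed 1 day after the last DMBA dose and again 60 days later. Each of the 4 groups had 1 Affymetrix array with RNA of 5 mice combined in equal parts. How far single mice differed is therefore unknown, differences between single arrays have no test, and no comparison can be given without the array it rests on.

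Signals are the deposited linear intensities, and the number of arrays limits their precision. Differences were taken on log2(signal + 16) after each array was centred on its median, as first-named minus second-named group, and a gene was counted as higher or lower when it differed at least 2-fold, that is by 1 log2. Probe sets for bacterial genes, which serve as negative controls, reached at most 9.6 in WT on placebo, 18.5 in WT on RU486, 8.3 in PAX8PPARg on placebo and 35.3 in PAX8PPARg on RU486. Runs of 4 signals below stand in this order of groups. A signal up to that level is called within the background range of its array, or not above background, and a ratio to it is given as a lower bound, against that level. The 2 RU486 arrays also stood apart in technical measures that move with treatment. The spike-in controls were 1.59 times (WT) and 2.43 times (PAX8PPARg) as bright on them as on the WT placebo array, against 1.00 for PAX8PPARg on placebo. Their 18S signal was 25545 and 41129 against 16701 and 15849 on the placebo arrays, and 19.2% and 22.8% of genes were within the background range, against 14.4% and 13.3%. The part of these in the RU486 differences was not tested. In tissue markers, all 13 luminal epithelial markers measured were at least 2-fold lower on the WT RU486 than on the WT placebo array, with a summed signal of 6377 against 41894. On the PAX8PPARg placebo array the adipocyte markers summed to 25125 and the T and B cell markers to 5617, against at most 10078 and 788 on the other 3 arrays. In such bulk tissue, fewer cells of a type and less RNA per cell cannot be told apart.

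A run of 10 Mmp genes lies side by side on mouse chromosome 9, in the order Mmp13, Mmp12, Mmp1b, Mmp3, Mmp1a, Mmp10, Mmp8, Mmp27, Mmp20 and Mmp7 in the GRCm38.p6 annotation. It holds 5 of the 10 genes described here. The others lie on chromosome 8 (Mmp2), 2 (Mmp9), 10 (Mmp11), 14 (Mmp14) and X (Timp1). RefSeq promoters were matched for 8 of the 10 genes, with 9 windows because Mmp12 had 2 annotated starts. The 250 bases before each start were searched on both strands for TGAGTCA, the binding motif of AP-1, a dimer of FOS and JUN proteins long known to act on MMP genes. The motif was in 4 of the 9 windows, those of Mmp13, Mmp3, Mmp10 and the second start of Mmp12, and in 4.46% of all 32851 mouse promoter windows of that length. Its first base lay 35 (Mmp13), 44 (Mmp12), 46 (Mmp3) and 63 (Mmp10) bases before the start. These 4 windows are printed because their genes are neighbours that share the motif but differ widely in signal. The sequences are RefSeq, build GRCm38.p6, written 5′ to 3′ up to the base before the start, with the AP-1 motif or its reverse complement TGACTCA in capitals.
Mmp13 (chr9:7272264-7272513, plus strand): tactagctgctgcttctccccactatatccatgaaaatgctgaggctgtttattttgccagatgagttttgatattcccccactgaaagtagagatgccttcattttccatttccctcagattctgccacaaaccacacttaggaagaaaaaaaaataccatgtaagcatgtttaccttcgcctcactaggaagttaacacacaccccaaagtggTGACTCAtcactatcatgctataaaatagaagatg
Mmp12 (chr9:7347124-7347373, plus strand): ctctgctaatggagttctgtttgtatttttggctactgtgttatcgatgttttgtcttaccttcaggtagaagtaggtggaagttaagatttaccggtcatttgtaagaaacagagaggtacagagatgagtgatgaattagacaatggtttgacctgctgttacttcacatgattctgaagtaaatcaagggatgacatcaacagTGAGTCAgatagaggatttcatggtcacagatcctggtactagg
Mmp3 (chr9:7445572-7445821, plus strand): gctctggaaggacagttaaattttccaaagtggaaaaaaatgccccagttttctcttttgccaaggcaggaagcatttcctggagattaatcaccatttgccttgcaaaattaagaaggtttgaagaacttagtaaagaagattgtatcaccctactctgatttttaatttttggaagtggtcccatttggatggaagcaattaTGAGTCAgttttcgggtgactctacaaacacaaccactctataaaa
Mmp10 (chr9:7502092-7502341, plus strand): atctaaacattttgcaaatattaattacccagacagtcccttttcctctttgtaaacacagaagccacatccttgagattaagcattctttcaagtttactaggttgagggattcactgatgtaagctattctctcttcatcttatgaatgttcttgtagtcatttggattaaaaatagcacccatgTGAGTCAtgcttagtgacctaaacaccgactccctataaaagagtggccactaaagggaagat

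The TATA box motif TATAAA was found in the windows of Mmp13, Mmp3 and Mmp10, and in 12.4% of all windows. The PEA3 motif AGGAAG of ETS factors was in 6 of the 9 windows (Mmp13, the first start of Mmp12, Mmp3, Mmp8, Mmp14 and Timp1) against 29.5% of all. AGAACA, a core of steroid receptor binding sites, was in the windows of Mmp10 and Mmp11, against 16.1% of all. No match overlapped a match of another motif. These matches describe letters in the sequence and are not evidence of binding.

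**Figure D1:**
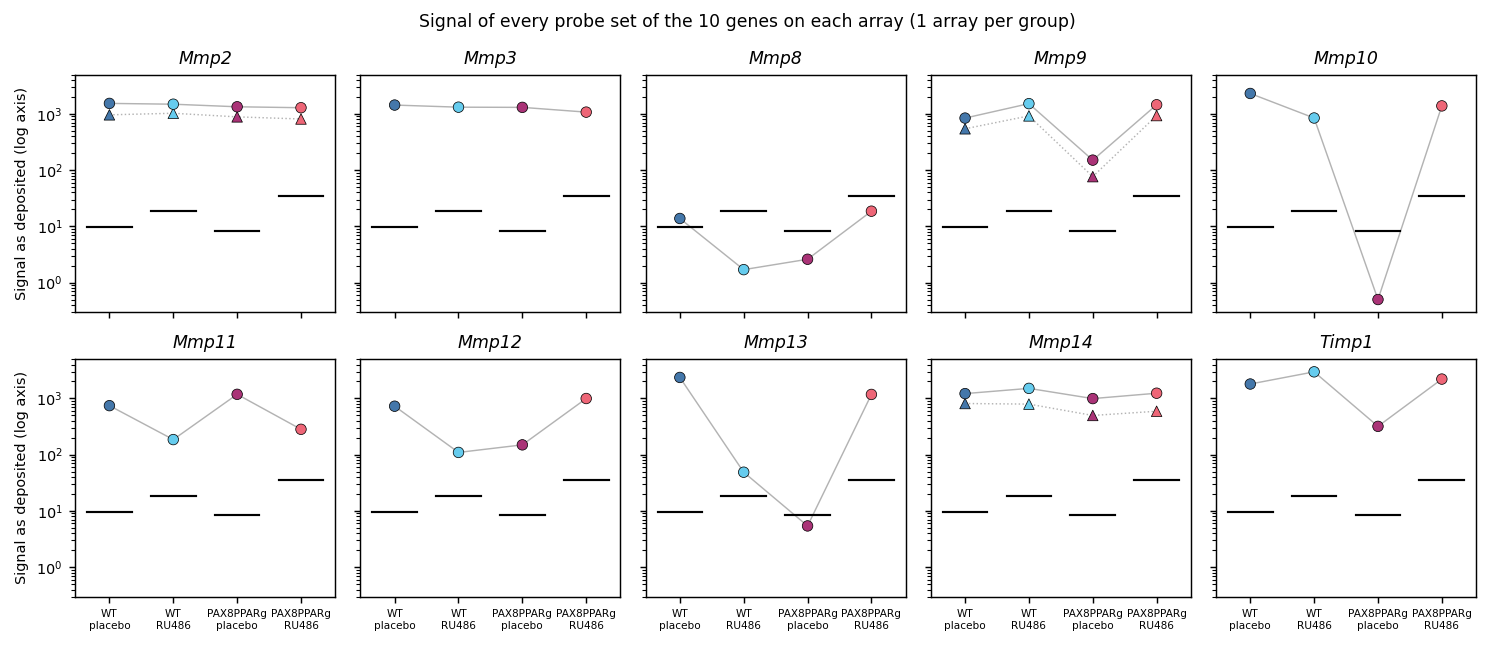
Signal of every probe set of the 10 genes on the 4 arrays, with the deposited signal on a log axis. Circles mark the brighter probe set of a gene, triangles the second one, and black bars the highest bacterial control of each array. Mmp10 and Mmp13 lie under the bar on the PAX8PPARg placebo array and far above it under WT placebo, while Mmp2, Mmp3 and Mmp14 stay nearly level.

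Among the collagenases, which cleave fibrillar collagen, Mmp13 encodes collagenase 3, the main collagenase of rodents. Its signal was 2357 in WT on placebo, 48.7 in WT on RU486, 5.4 in PAX8PPARg on placebo and 1175 in PAX8PPARg on RU486. The gene was thus high on one array of each genotype, on placebo in WT and on RU486 in PAX8PPARg. RU486 minus placebo was -5.20 log2 in WT, a 48.4-fold lower signal, and 5.93 in PAX8PPARg, where the signal was at least 157-fold higher because the placebo array was within the background range. Under placebo the PAX8PPARg tumours were at least 328-fold lower than the WT tumours, and under RU486 they were 23.1-fold higher.

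Mmp8, the collagenase of neutrophil granules, gave almost no signal. It read 13.8, 1.7, 2.6 and 18.6 in the order of groups given above, and only the first of these was above its array's background range. Its differences are therefore not measured, and the value of 1.03 log2 for RU486 in PAX8PPARg, which enters the counts below, comes from signals that were not above background on either array.

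The stromelysins, which cut laminin, fibronectin and proteoglycans and activate other MMPs, gave 3 different patterns. Mmp10, stromelysin 2, read 2303 in WT on placebo, 843.7 in WT on RU486, 0.5 in PAX8PPARg on placebo and 1385 in PAX8PPARg on RU486. It was above background on every array except that of PAX8PPARg on placebo. RU486 minus placebo was -1.43 log2 in WT, a 2.73-fold lower signal, and 6.54 in PAX8PPARg, at least 185-fold higher. The PAX8PPARg placebo tumours were at least 320-fold lower than the WT placebo tumours, and under RU486 the genotypes differed by 0.65 log2, under 2-fold.

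Mmp3, stromelysin 1, which in mammary gland is made by stromal fibroblasts, read 1433, 1314, 1304 and 1073 in the order of groups given above. All 4 values lay close together, and its differences ranged from -0.35 to -0.12 log2 over the 4 pairwise comparisons. It lies in the chromosome 9 run between Mmp12 and Mmp10 and carries the same AP-1 motif in its window. Mmp11, stromelysin 3, an MMP of tumour stroma that furin activates inside the cell, read 742.5, 185.2, 1181 and 281.9 in the same order. Both RU486 arrays were low and both placebo arrays high. RU486 minus placebo was -1.91 log2 in WT and -1.87 in PAX8PPARg, 4.01-fold and 3.79-fold lower, so the double difference was 0.04. Mmp11 was the only one of the 10 genes at least 2-fold lower under RU486 in both genotypes, as were 87 of the 6197 genes at or above the median level of all genes (1.4%).

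Mmp12, the elastase of macrophages, read 725.8 in WT on placebo, 109.4 in WT on RU486, 149.2 in PAX8PPARg on placebo and 994.8 in PAX8PPARg on RU486. Like Mmp13 it was high on placebo in WT and on RU486 in PAX8PPARg, but all 4 signals were above the background range. RU486 minus placebo was -2.56 log2 in WT and 2.75 in PAX8PPARg, 6.63-fold lower and 7.37-fold higher. PAX8PPARg minus WT was -2.36 under placebo and 2.95 under RU486.

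The gelatinases, which cut denatured collagen and the collagen of basement membranes, differed from each other. Mmp9, gelatinase B, of which neutrophils hold large stores, read 841, 1519, 150.4 and 1452 with its brighter probe set and 542.7, 919.7, 76.5 and 932.4 with the second in the order of groups given above. The PAX8PPARg placebo array was low with both probe sets, and the other 3 arrays lay within a 2-fold range. RU486 minus placebo in PAX8PPARg was 3.27 and 3.49 log2 with the 2 probe sets, and 0.84 and 0.74 in WT. PAX8PPARg minus WT under placebo was -2.55 and -2.78. Mmp2, gelatinase A, a product of stromal cells, read 1534, 1484, 1336 and 1285 with its brighter probe set and 960.9, 1024, 883.7 and 810.3 with the second. All arrays were close, and its differences ranged from -0.39 to 0.09 log2 over both probe sets and the 4 pairwise comparisons. Mmp14, the membrane-bound MMP that activates pro-MMP2 at the cell surface, read 1216, 1506, 991.6 and 1235 with its brighter probe set and 810.4, 791, 497.1 and 590.6 with the second. It stayed under 2-fold in all 4 pairwise comparisons with both probe sets, and its lowest value was -0.88 log2 for PAX8PPARg minus WT under placebo with the second probe set.

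Timp1, the inhibitor, read 1800 in WT on placebo, 2964 in WT on RU486, 318.3 in PAX8PPARg on placebo and 2204 in PAX8PPARg on RU486. As with Mmp9, the PAX8PPARg placebo array was low and the other 3 lay within a 2-fold range. RU486 minus placebo was 2.86 log2 in PAX8PPARg, 7.66-fold higher, and 0.72 in WT, 1.65-fold higher. PAX8PPARg minus WT was -2.63 under placebo, 6.53-fold lower, and -0.48 under RU486. In WT under RU486 the signal of Timp1 was thus higher by 0.72 log2, under 2-fold. In the same comparison Mmp13, Mmp12, Mmp11 and Mmp10 had differences between -5.20 and -1.43. Mmp9 differed by 0.84 and 0.74 with its 2 probe sets, and Mmp2, Mmp3 and Mmp14 by -0.12 to 0.31.

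**Figure D2:**
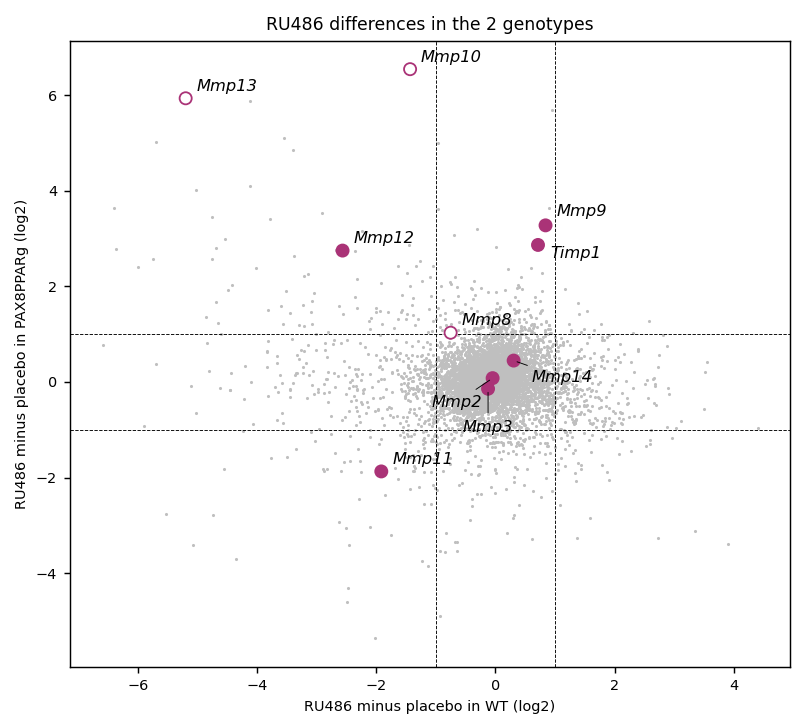
RU486 minus placebo in WT (horizontal, log2) against the same in PAX8PPARg (vertical, log2), which share no array. Grey points are the 6197 genes at or above the median level, dashed lines mark 2-fold, and open circles mark the genes with a signal not above background on at least 1 array (Mmp8, Mmp10, Mmp13). Mmp10, Mmp12 and Mmp13 lie at the upper left, Mmp11 at the lower left, Mmp9 and Timp1 at the top near 0.8 in WT, and Mmp2, Mmp3 and Mmp14 at the centre.

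In WT tumours, RU486 against placebo left 4 of the 10 genes at least 2-fold lower (Mmp10, Mmp11, Mmp12 and Mmp13), 0 higher and 6 within 2-fold. Of the 6197 genes, 8.25% were lower by that measure and 5.50% higher, and of all 12393 genes, 8.85% and 7.45%. Because the 10 genes were chosen with earlier results of these data known, such shares, here and below, are description and no test of the 10. The median of the 10 was -0.44 log2 against -0.06 for the 6197 genes. Mmp8 alone of the 10 was below the median level.

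In PAX8PPARg tumours, 6 of the 10 genes were at least 2-fold higher under RU486 (Mmp8, Mmp9, Mmp10, Mmp12, Mmp13 and Timp1) and 1, Mmp11, was lower. The background was 5.05% higher and 5.10% lower among the 6197 genes, and 10.6% and 7.02% among all genes. The median of the 10 was 1.89 log2, against 0.05. Of the 6, Mmp8 was not measured above background on either array.

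Under placebo, 5 of the 10 genes were at least 2-fold lower in PAX8PPARg than in WT (Mmp9, Mmp10, Mmp12, Mmp13 and Timp1) and 0 were higher, against 4.39% lower and 1.89% higher of the 6197 genes and 5.50% and 4.28% of all. The median of the 10 was -1.61 log2, against -0.19. This comparison and that of RU486 in PAX8PPARg share the PAX8PPARg placebo array, so the same low signals enter both. That array was the lowest of the 4, after centring, for 7 of the 10 genes and for 34.4% of the 6197 genes. Among the 7 were Mmp8, not above background there, and Mmp2 and Mmp14, which spanned 0.39 and 0.79 log2 over the 4 arrays. As deposited, Mmp2 read lower on the PAX8PPARg RU486 array (1285 against 1336) and Mmp8 on the WT RU486 array (1.7 against 2.6). Under RU486, 2 of the 10 genes were at least 2-fold higher in PAX8PPARg than in WT (Mmp12 and Mmp13) and 0 lower, against 7.23% and 10.2% of the 6197 genes and 10.8% and 10.1% of all.

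The RU486 effect in PAX8PPARg minus that in WT was at least 1 log2 for 6 of the 10 genes, again Mmp8, Mmp9, Mmp10, Mmp12, Mmp13 and Timp1, and at most -1 for 0. Among the 6197 genes 11.7% were higher by that measure, and among all genes 15.6% were higher and 12.1% lower. It was 11.1 for Mmp13, 7.97 for Mmp10, 5.31 for Mmp12, 2.43 for Mmp9 and 2.15 for Timp1. Mmp10, Mmp12 and Mmp13 lay 2-fold or more below placebo in WT and 2-fold or more above it in PAX8PPARg, as did 87 of the 6197 genes (1.4%). For Mmp9 and Timp1 both RU486 effects were positive and that in WT was under 2-fold.

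A limma fit with genotype and treatment as additive terms averages each contrast over both levels of the other factor, with 1 residual degree of freedom and no replicate in any group. It called 0 of 6197 genes for RU486 and 0 for genotype at a Benjamini-Hochberg adjusted p of 0.05, a share of 0.00% in either direction, while 278 and 273 genes had an unadjusted p under 0.05. Mmp11 had the smallest p of the 9 genes in the fit, with an RU486 difference of -1.89 log2 (SE 0.280), an unadjusted p of 0.00261 and a limma adjusted p of 0.970, and both genotypes showed its direction. The fit averages the opposite RU486 differences of Mmp13 to 0.37 (SE 2.81, adjusted p = 0.994), a value that turned to -0.08 with a pseudocount of 64.

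**Figure D3:**
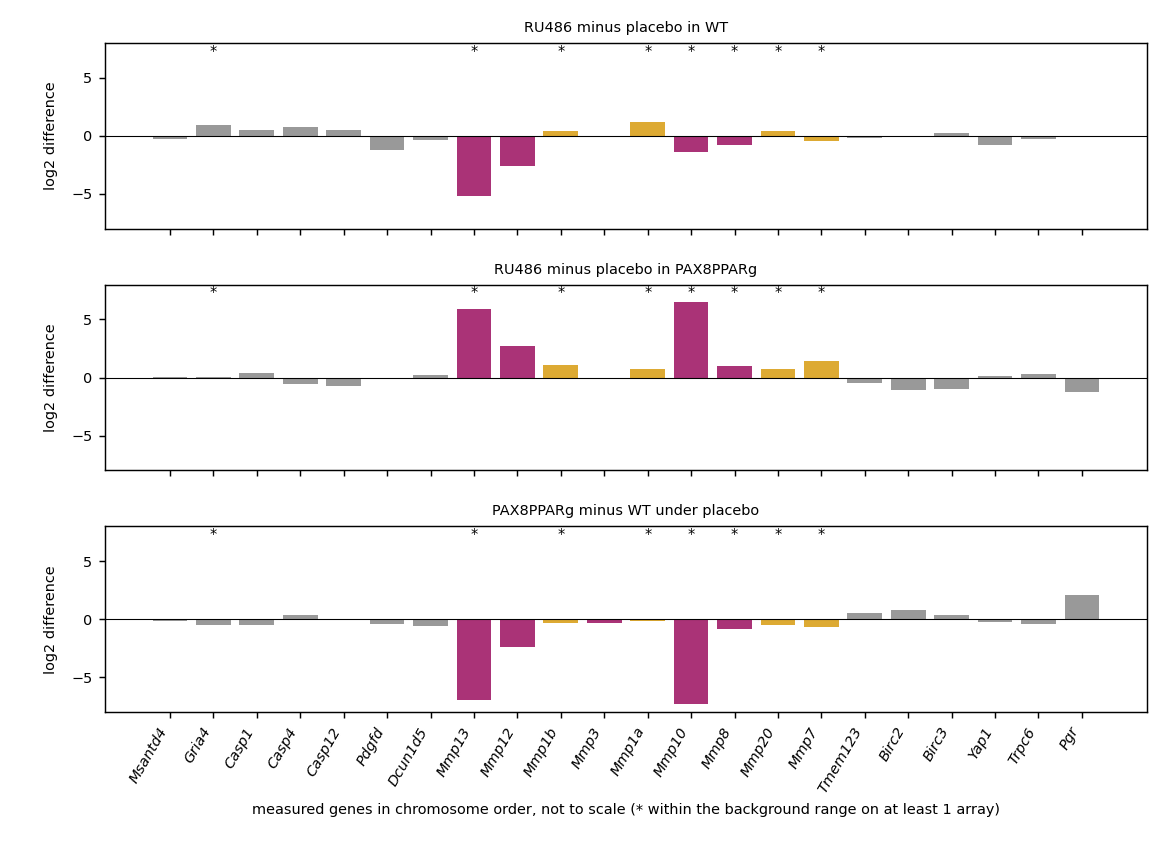
Log2 difference of the measured genes in and around the chromosome 9 run, in chromosome order and not to scale, for RU486 in WT (top), RU486 in PAX8PPARg (middle) and genotype under placebo (bottom). Purple bars are genes described here, yellow bars other Mmp genes of the run, grey bars flanking genes, and stars mark a signal not above background on at least 1 array. Mmp13, Mmp12 and Mmp10 carry the tall bars, and Mmp3 between them has almost none.

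Within the chromosome 9 run, genes that lie next to each other differed. Mmp13 and Mmp10 differed at least 328-fold and 320-fold between WT and PAX8PPARg on placebo, both bounds set by the background range. Mmp12 spanned 2.95 log2 over the 4 arrays and Mmp3, which lies between Mmp12 and Mmp10, 0.47. Of the other 4 genes of the run that were measured, Mmp1b and Mmp20 were not above background on any array. Mmp1a reached 22.1 on the WT RU486 array and Mmp7, matrilysin, an MMP of glandular epithelium, 37.4 on the PAX8PPARg RU486 array. Of the 20 flanking genes, 10 on each side, 13 were measured. Their RU486 difference lay between -1.19 and 0.96 log2 in WT and between -1.29 and 0.39 in PAX8PPARg. Pgr, the gene of the progesterone receptor that RU486 binds, is among them, 8 genes beyond Mmp7, and read 37.3, 37.9, 235.8 and 78.0 in the order of groups given above.

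The patterns over the 4 arrays were compared by the root mean square (RMS) difference of the log2 values after each gene's own mean was taken off. Mmp9 and Timp1 lay 0.19 log2 from each other, nearer than either lay to any of the genes at or above the median level that are not among the 10. The nearest of those were the same 3 genes for both. They were Tnc, which encodes the matrix protein tenascin C (0.37 from Mmp9 and 0.26 from Timp1), Rgs16, a regulator of G protein signalling (0.42 and 0.37), and Il1rn, the interleukin 1 receptor antagonist (0.47 and 0.35). With a pseudocount of 64, Tnc and Rgs16 stayed among the nearest 3 of both and Il1rn of neither. Tnc read 6178, 6204, 824.2 and 5412 in the order of groups given above.

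For Mmp13 the nearest genes were the serum amyloid genes Saa3 (0.48) and Saa1 (0.94) and the kallikrein Klk8 (1.16), and for Mmp10 they were the chromatin protein gene Hmga2 (0.91), the troponin gene Tnnt2 (1.02) and Saa3 (1.18). Hmga2 read 3671, 7073, 45.8 and 2886 in the order of groups given above. In WT it was thus higher under RU486, where Mmp10 was lower. Both were lowest in PAX8PPARg tumours given placebo, where the Mmp10 signal was not above background. With a pseudocount of 64, only Tnnt2 of these stayed among the nearest 3 of Mmp10, and only Saa3 among those of Mmp13. Saa3, an acute phase protein, read 4393, 237.6, 23.0 and 2063 in the same order of arrays. Mmp12 lay nearest to the calgranulin gene S100a9 (0.16), Moxd1 (0.25) and the hypoxia-responsive gene Ndrg1 (0.36). S100a9 read 2366, 355.7, 394.1 and 2517. Mmp11 lay nearest to the fatty acid synthesis gene Acaca (0.11), the collagen gene Col9a1 (0.12) and the transcription factor gene Foxo1 (0.18), all of them high on both placebo arrays. Acaca read 1398, 421.7, 2094 and 539.9. For Mmp8, with 3 of 4 signals within the background range, they were Tada2a, Smox and Sap30 (0.04 to 0.07). These distances rest on 4 points that share the arrays and are a description.

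**Figure D4:**
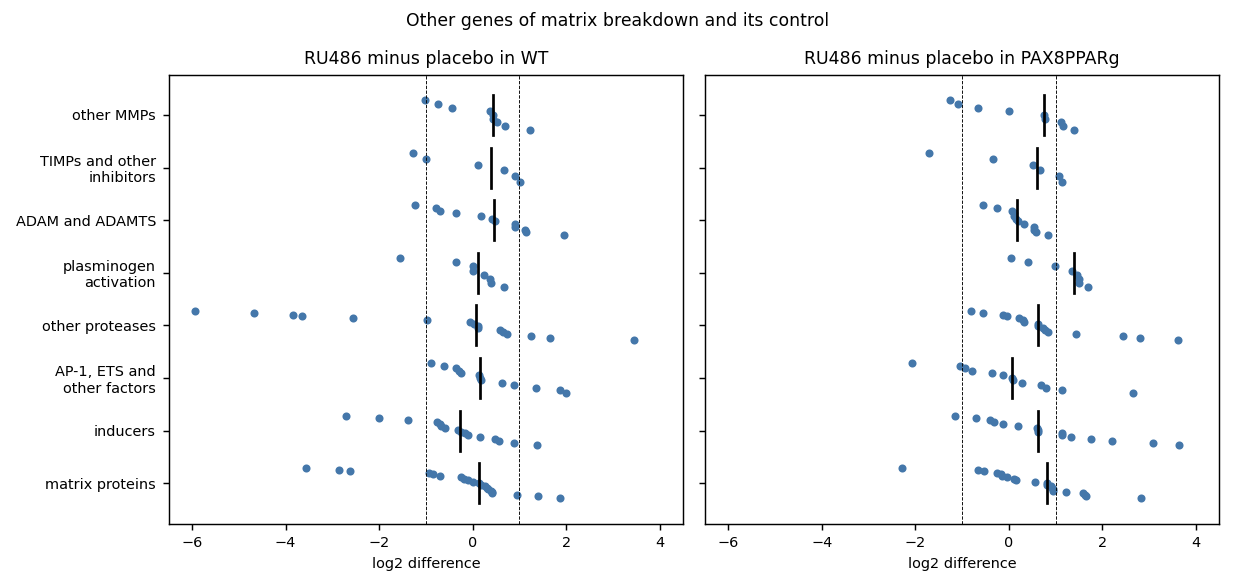
Log2 RU486 difference of each measured gene in 8 lists of genes related to matrix breakdown, in WT (left) and PAX8PPARg (right). Points are genes, black lines list medians and dashed lines 2-fold. The kallikreins stand at the far left in WT and the far right in PAX8PPARg, and most plasminogen genes lie beyond 1 log2 in PAX8PPARg.

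Under RU486, 7.45% of all 12393 genes were at least 2-fold higher in WT and 8.85% lower, and in PAX8PPARg 10.6% and 7.02%. These shares stand beside the list and marker counts from here on. Other inhibitors did not share one direction with Timp1. In WT, 1 of the 6 measured was at least 2-fold higher under RU486 and 2 lower, and in PAX8PPARg 2 were higher and 1 lower. One of those counted as higher in PAX8PPARg, Pzp, was not above background on any array. Timp2, the inhibitor that also helps MMP14 to activate pro-MMP2, read 3240, 6569, 2672 and 1915 in the order of groups given above, so it was high on the WT RU486 array, with an RU486 difference of 1.02 log2 in WT and -0.34 in PAX8PPARg. Its probe sets ranged from 1.02 to 2.08 in WT and from -1.09 to -0.18 in PAX8PPARg. Reck, a membrane-anchored inhibitor, read 191, 69.3, 250.6 and 497.6 and differed by -1.28 and 1.08. Timp3, which is held in the matrix, differed by 0.66 and 0.67. Timp4 read 18.1, 1.0, 85.5 and 12.4, not above background on either RU486 array. A2m, a general protease trap, read 19.7, 50.6, 18.3 and 28.4, and the last was not above background, so its RU486 difference was measured in WT only (0.90).

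Of 9 other Mmp genes measured, 1 was higher and 1 lower under RU486 in WT, and 3 were higher and 2 lower in PAX8PPARg. The one counted as higher in WT, Mmp1a, had a placebo signal within the background range, and Mmp1b, counted as higher in PAX8PPARg, was within it throughout. Mmp7, also counted as higher in PAX8PPARg, was within that range on the PAX8PPARg placebo array. Mmp24, a membrane MMP, read 221, 369.1, 283.1 and 588.2 (0.70 and 1.15 log2), and Mmp19 read 276.9, 363.6, 263.2 and 90.2 (0.37 and -1.26). In PAX8PPARg the probe sets of Mmp24 ranged from 0.79 to 1.15 and those of Mmp19 from -1.26 to -0.65. Neither spanned as much as Mmp9. Of 12 ADAM and ADAMTS genes, related metalloproteinases that shed membrane proteins or cut proteoglycans, 3 were higher and 1 lower in WT and 0 differed 2-fold in PAX8PPARg. Adam19 read 462.9, 1027, 298.9 and 180, and Adamts4, an aggrecanase, 2174, 913.6, 643.2 and 874.9.

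The plasminogen system, whose product plasmin activates several pro-MMPs, had 5 of 8 measured genes at least 2-fold higher under RU486 in PAX8PPARg and 0 lower, with a median of 1.40 log2. In WT 0 were higher and 1 was lower. Plau, the urokinase gene, read 4575, 4604, 1883 and 4734 in the order of groups given above, and its receptor gene Plaur 384.3, 511.7, 101.8 and 289.5. Like Mmp9 and Timp1, both were lowest on the PAX8PPARg placebo array. Anxa2, a cell-surface docking protein of plasminogen, differed by 1.49 in PAX8PPARg, though its probe sets ranged from -0.56 to 1.59. Serpinb2, an inhibitor of urokinase, read 86.6, 19.2, 0.0 and 31.2, and neither PAX8PPARg signal was above background although it counts among the 5.

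Among 16 other proteases, 3 were higher and 5 lower in WT, and 4 were higher and 0 lower in PAX8PPARg. The kallikreins, secreted serine proteases of epithelia, were low on the same arrays as Mmp13. Klk6 read 2861, 31.1, 24.1 and 430.2, with RU486 differences of -5.93 in WT and 3.61 in PAX8PPARg. Klk8 differed by -4.68 and 2.80, and Klk10 by -3.65 and 2.43. St14, which encodes the membrane protease matriptase, read 1234, 71.4, 980.4 and 1109 and was low on the WT RU486 array only. Furin differed by 0.02 and 0.62.

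Of 13 factors known to act on MMP promoters, 3 were higher and 0 lower in WT, and 2 were higher and 2 lower in PAX8PPARg. The subunits of AP-1 did not move as one. Fos read 695.4, 1797, 1578 and 331.7, with differences of 1.35 in WT and -2.06 in PAX8PPARg, opposite in both genotypes to Mmp13, Mmp12 and Mmp10. Fosb read 66.5, 311.5, 66.7 and 23.4, and its PAX8PPARg RU486 signal was not above background. Fosl1 read 228.7, 876.2, 19.2 and 186.2 and was higher under RU486 in both genotypes (1.87 and 2.66). Jund differed by 0.18 and 1.13.

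Of 16 inducers, 1 was higher and 3 lower in WT, and 7 were higher and 1 lower in PAX8PPARg, though Il1a, Il6 and Il17a, counted among the 7, were not above background on either PAX8PPARg array. Ptgs2, the inducible cyclooxygenase, read 566.5, 1067, 9.3 and 270.9, Hbegf, a ligand of the EGF receptor, 734.4, 445.3, 45.2 and 452.7, and the cytokine Il1b 1127, 694.4, 114.5 and 528.6. All 3 were lowest on the PAX8PPARg placebo array, with PAX8PPARg minus WT under placebo at -4.72, -3.81 and -3.32 log2. Tgfb2 read 2007, 294.3, 940.4 and 981.1 and was low on the WT RU486 array. Of 21 matrix proteins, 2 were higher and 3 lower in WT, and 5 were higher and 1 lower in PAX8PPARg. Acan, counted among the 5, had a PAX8PPARg placebo signal within the background range. The 3 lower in WT were the epithelial basement membrane genes Lama3 (-3.57), Lamb3 (-2.63) and Col17a1 (-2.86), which differed by 1.22, 1.58 and 0.82 in PAX8PPARg. The fibrillar collagen genes Col1a1, Col1a2 and Col3a1 stayed within 2-fold in both with their brighter probe sets, at 0.26 to 0.42 in WT and 0.81 to 0.93 in PAX8PPARg.

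**Figure D5:**
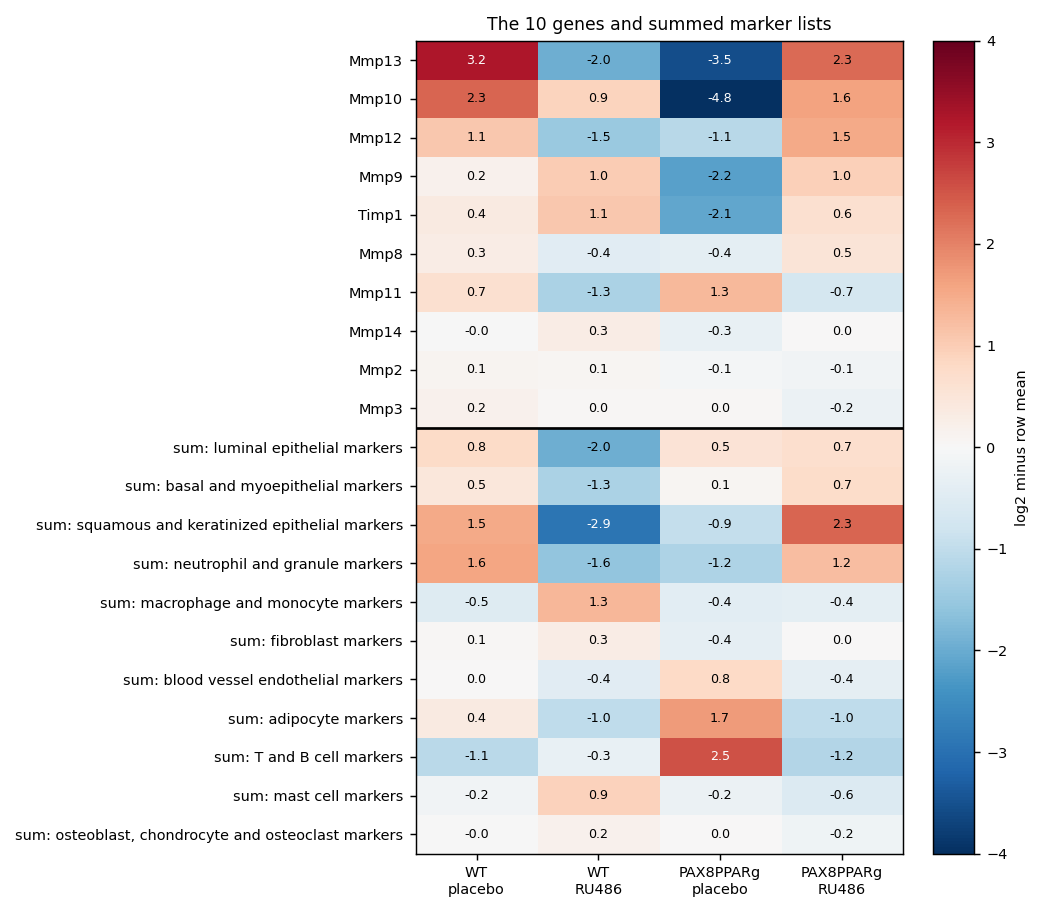
Log2 signal of the 10 genes (top, brighter probe set, log2 of signal + 16) and of the summed signals of 11 marker lists (bottom), each minus its row's mean over the 4 arrays. Columns are arrays, and colours end at -4 and 4. Mmp13 and Mmp12 are red and blue on the same arrays as the sums of the keratinized and neutrophil lists. The neutrophil sum is mostly Ltf, S100a9 and S100a8, and other markers of that list differ from it. The fibroblast row is pale, as are those of Mmp2, Mmp3 and Mmp14.

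Markers of cell types that make MMPs moved with several of these genes, and their part in the differences was not tested. Under RU486 all 13 squamous and keratinized markers were 2-fold or more lower in WT, and all 13 were 2-fold or more higher in PAX8PPARg. Their summed signal was 7678, 350.2, 1386 and 13390 in the order of groups given above, and 11 of the 13 were not above background on the WT RU486 array. These are the directions of Mmp13, Mmp12 and Mmp10. Mmp10 read 843.7 in WT under RU486. In PAX8PPARg under placebo, 4 of the 13 markers were within the background range, as Mmp10 was. Luminal markers summed to 36239 in the PAX8PPARg tumours given placebo and to 39529 in those given RU486. Whether keratinized or luminal cells had a part in the Mmp10 differences was not tested.

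Of 10 neutrophil markers, 5 were lower in WT and 6 higher in PAX8PPARg, with sums of 8764, 995.3, 1257 and 6932 on the 4 arrays in the same order. Those sums were mostly the signals of Ltf (4880, 286.1, 604.3 and 2937), S100a9 (2366, 355.7, 394.1 and 2517) and S100a8 (1039.8, 207.6, 123.3 and 1108.5). Elane, the neutrophil elastase gene, was not above background on any of the 4 arrays, and Mmp8 only on the WT placebo array. The 5 lower in WT were S100a8, S100a9, Ltf, Il1r2 and Cxcr2, at -4.02 to -1.22 log2, where Mmp9, a neutrophil product, differed by 0.84. Csf3r, a cytokine receptor gene of neutrophils, read 43.6, 50.9, 4.3 and 48.2. It was lowest on the PAX8PPARg placebo array as Mmp9 was, but within the background range there. Unlike Csf3r, the 5 markers named before it were lower under RU486 in WT. Of 16 macrophage markers, 14 were at least 2-fold higher under RU486 in WT, with sums of 20295, 72489, 21553 and 22277. Mmp12, the macrophage elastase, was 6.63-fold lower on that same WT RU486 array. In PAX8PPARg 1 macrophage marker was higher and 1 lower, and Mmp12 was 7.37-fold higher.

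Fibroblast markers summed to 59682, 69869, 44952 and 58201, with 1 of 16 higher and 3 lower in WT, and 0 higher and 2 lower in PAX8PPARg. All 16 were above background on all 4 arrays. Mmp2, Mmp3 and Mmp14 also stayed within 2-fold throughout, while Mmp11 was about 4-fold lower under RU486 in both genotypes. The 4 fibroblast markers with the largest RU486 differences did not go one way. Dpt differed by -1.09 in WT and -1.89 in PAX8PPARg, Thy1 by -1.29 and -0.88, Lum by -0.83 and -1.21, and S100a4 by 1.82 and 0.89. Endothelial markers had 0 of 10 at least 2-fold different in WT and 5 lower in PAX8PPARg. Basal and myoepithelial markers had 10 of 12 lower in WT, and 6 higher and 3 lower in PAX8PPARg. Adipocyte markers had 4 of 8 lower under RU486 in WT and 8 of 8 in PAX8PPARg, with sums of 10078, 3824, 25125 and 3816. Their sum was thus higher on each placebo array than on the RU486 arrays and highest in PAX8PPARg, as the Mmp11 signal was. On the WT placebo array that sum was mostly Fabp4 (5680) and Lpl (2822.5). Adipoq (328.8, 164.9, 4509 and 122.6) and Lep (58.7, 40.3, 922.9 and 23.8) were high on the PAX8PPARg placebo array only. T and B cell markers had 2 of 11 higher in WT and 11 lower in PAX8PPARg, with their highest sum on the array where Mmp9, Mmp10, Mmp12, Mmp13 and Timp1 were low. Mast cell markers had 5 of 9 higher and 1 lower in WT, and 1 higher in PAX8PPARg. Of 9 markers of bone and cartilage, whose cells also make Mmp13, 0 differed 2-fold in WT. In PAX8PPARg 4 were higher (Ibsp, Sp7, Acan and Phex, the last not above background on any array) and Col2a1 was lower. Their sums of 2526, 2823, 2567 and 2243 were mostly the signal of Acp5, which read 2161, 2551, 1753 and 1616.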

How the data were processed

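One pooled RNA sample of each of the 4 groups was measured on 1 Affymetrix array. The values are probe set intensities on a linear scale, as the authors deposited them, and the sources used here do not name the software that made them. Their 2% trimmed mean was 500.1 to 500.2 on all arrays, so they had been scaled before they were deposited. RNA pooling and biotin labelling are per the labels' protocols. Of 22690 probe sets, 64 were controls and 20380 had 1 gene symbol. Symbols came from the platform annotation. For counts, the brightest probe set over the 4 arrays stood for its gene. Values were taken as log2(signal + 16) and centred on each array's median. Folds were computed on signals scaled to a common median. The highest of 27 bacterial control probe sets set the background range. Genes at or above the median level (6197 of 12393) gave the background shares and entered the limma fits.

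With 1 array per group, pairwise differences have no test, replicates could not be left out, and p-values come only from the additive limma fits. The steps were tested on simulated data. The 10 genes, the gene lists, and the rules were chosen with earlier results of these data known. The rule for named genes took all 10 genes, up to 4 genes per related list, above background on at least 1 array, with the largest RU486 difference in either genotype, and the 3 nearest patterns for each of the 10 genes that spanned at least 1 log2. Timp3, Furin, Elane, Mmp1b, Mmp20, Il1a, Il6, Il17a, Pgr, Pzp, Pcsk6, Tgfa, Cxcr2, Csf3r, Phex, Acp5, Fabp4, Lpl and the fibrillar collagens fall outside that rule and were named after their values were seen. Protein sequences were not analysed here. The fits ran in R 4.3.3 with limma 3.58.1, all else in Python 3.11.15 with numpy 2.4.6 and pandas 2.3.3.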

Additional observations from a re-analysis of the deposited data

Results flagged for a closer look

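Several genes differed at least 2-fold under RU486 in both genotypes but in opposite directions. This difference between genotypes was not tested, since each group had 1 array. Among the MMPs, the RU486 effect in PAX8PPARg minus that in WT was 11.1 log2 for Mmp13, 7.97 for Mmp10 and 5.31 for Mmp12, all lower in WT and higher in PAX8PPARg. The values for Mmp13 and Mmp10 rest on a PAX8PPARg placebo signal within the background range, so their size is not exact. Among the genes of the related lists it was 9.54 for the kallikrein Klk6, 7.48 for Klk8, 6.08 for Klk10, 4.79 for Lama3, 4.21 for Lamb3, 3.98 for the proprotein convertase Pcsk6, 3.75 for the growth factor Tgfa and 2.36 for Reck. It was 3.24 for Serpinb2 and 2.70 for Il1a, neither above background on a PAX8PPARg array. Among the neutrophil markers it was 6.40 for Ltf, 5.44 for S100a9, 5.38 for S100a8 and 4.34 for Il1r2. Of the marker lists, only that of neutrophils is given gene by gene here. All 13 squamous and keratinized markers also were at least 2-fold lower in WT and higher in PAX8PPARg, with a median of 6.92. Of these, 11 were not above background on the WT RU486 array, so their sizes are not exact. The basal markers Krt5, Krt14 and Krt15 and the luminal marker Krt7 went the same way. Fos took the other direction, higher in WT and lower in PAX8PPARg, at -3.41. Some T and B cell markers did the same. Of the 6197 genes at or above the median level, 134 (2.16%) differed at least 2-fold in opposite directions.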

How the results depend on the processing

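No paired analysis was possible because each group had 1 array, so that no replicate numbers could be paired, and no replicate could be left out. Each of the 50 differences of the 10 genes (5 comparisons) was recomputed with a pseudocount of 1 or 64, without centring, with quantile normalization, with the mean of a gene's probe sets, without the level filter, and with signals floored at the highest bacterial control. Many of these values could not change. The level filter does not enter a gene's own difference. The mean of probe sets alters only Mmp2, Mmp9 and Mmp14, and the floor only Mmp8, Mmp10 and Mmp13. The counts that follow include such unchanged values. Of the 24 that were at least 2-fold, 162 of 168 recomputed values kept direction and 2-fold size. The 6 others, all of Mmp8, kept their direction at a smaller size (0.13 to 0.90 log2). Of the 26 under 2-fold, 179 of 182 values stayed so, and the 3 others were Mmp8 with a pseudocount of 1 (-2.45 for RU486 in WT, -2.25 and 2.80 for genotype under placebo and RU486). The sizes for genes within the background range depended on these choices. For RU486 in PAX8PPARg Mmp13 ranged from 4.27 to 7.67 log2, and for genotype under placebo Mmp10 ranged from -10.79 to -5.35. The limma fits called 0 genes under each of them, with 256 to 608 genes at an unadjusted p under 0.05 for RU486 and 227 to 457 for genotype. The averaged RU486 value of Mmp13 in that fit was 0.37 log2, and it was -0.08 with a pseudocount of 64 and -0.26 with floored signals.

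Over all genes, without the level filter 923 were higher and 1097 lower for RU486 in WT, 1308 and 870 for RU486 in PAX8PPARg, 531 and 681 for PAX8PPARg against WT on placebo, 1341 and 1255 for the same on RU486, and 1930 and 1504 for the difference of the RU486 effects, because more genes were counted. The counts with the filter were 341 and 511, 313 and 316, 117 and 272, 448 and 634, and 722 and 620. Without centring, genotype under placebo had 182 higher and 192 lower, its median moving from -0.19 to 0.00 log2, and RU486 in PAX8PPARg had 230 and 414, its median moving from 0.05 to -0.08. With quantile normalization genotype under placebo had 169 and 220. The cause was not tested. Of the 21 nearest genes, 12 were also nearest with a pseudocount of 64. Mmp11 and Mmp12 kept all 3, Mmp9 and Timp1 kept 2, Mmp10 and Mmp13 kept 1, and the 3 of Mmp8 were not looked up again because its span fell under 1 log2.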
